A study of Mus musculus with 11 samples.

Results

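The 10 genes described here encode transcription factors that are found in cardiac fibroblasts: Ebf1, Ebf2 and Ebf3, Tcf21, Prrx1, Meox1, Twist1, Osr1, Scx and Runx1. They are 10 of the 55513 genes in the count table. They were picked by gene symbol for this role, and Ebf2 also because its level was higher after inhibitor treatment than after solvent. RNA was sequenced from the hearts of 11 female C57BL/6J mice, 8 weeks old, with 1 library per mouse, 3 days after the operation. The left anterior descending artery (LAD), a main coronary vessel, of 8 mice was tied off for good to produce a myocardial infarction (MI), and tissue was taken from the infarct and border zone. Of these, 4 mice received the ADAM10 inhibitor GI254023X (A10i, 100 mg/kg) dissolved in DMSO from a subcutaneous osmotic minipump, and 4 received DMSO alone. The other 3 mice were sham operated, also received DMSO, and gave healthy heart tissue, so that all 11 mice were exposed to the solvent. Tissue of the infarct and border zone was thus compared with healthy heart tissue. The inhibitor was given only to infarcted mice in these libraries, and the age, sex and strain were the same in all groups.

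Fibroblasts are the main collagen-producing cells of the heart. In the uninjured heart they are kept in a resting state, and after infarction they divide, migrate into the damaged region and lay down the scar. TCF21, a basic helix-loop-helix (bHLH) factor, directs the origin of these cells from the epicardium, and PRRX1 is a homeobox factor of embryonic and adult mesenchyme. EBF1, EBF2 and EBF3 are closely related zinc-binding factors, of which EBF1 is best known from B cells and EBF2 from brown fat precursors. MEOX1, TWIST1, SCX and RUNX1 are known from activated or matrix-producing mesenchymal cells.

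All 10 genes had at least 18 counts in each library and passed the filter on low counts in every comparison. The label was checked with marker genes. Of 16 markers of resident fibroblasts, all 16 passed the filter, and their summed level was 2769 to 2913 CPM (counts scaled to TMM-adjusted library size) in sham, 2094 to 2707 with DMSO and 2695 to 3370 with A10i. The summed level of 10 cardiomyocyte markers was 95151 to 95780 CPM in sham, 44860 to 66001 with DMSO and 54982 to 75554 with A10i. In such bulk tissue, fewer cells of a type and less RNA per cell cannot be told apart. Several members are also expressed in other cells, for example EBF1 in B cells and pericytes and RUNX1 in blood cells.

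Ebf1, Ebf2 and Ebf3 are similar in sequence, so it was checked whether their reads could be told apart. Of the windows of 100 coding bases compared, the one with the fewest differences of Ebf2 from both other genes together is shown. It covers coding bases 148 to 247 of Ebf2 (chr14:67237465-67237564, plus strand), 151 to 250 of Ebf1 (chr11:44620430-44620529, plus strand) and 151 to 250 of Ebf3 (chr7:137313559-137313658, minus strand), each within 1 exon (GENCODE M21, GRCm38). The sequences run 5′ to 3′, and capitals mark the bases that differ from Ebf2:
Ebf2: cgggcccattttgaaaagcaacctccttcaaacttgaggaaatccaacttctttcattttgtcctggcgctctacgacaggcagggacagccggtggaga
Ebf1: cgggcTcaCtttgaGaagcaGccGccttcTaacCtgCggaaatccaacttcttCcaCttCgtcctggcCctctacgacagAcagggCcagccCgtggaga
Ebf3: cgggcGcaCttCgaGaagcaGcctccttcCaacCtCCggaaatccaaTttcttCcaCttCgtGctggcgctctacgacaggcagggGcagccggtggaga

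In this window, Ebf1 and Ebf3 each differed from Ebf2 at 15 of 100 bases. Windows in which Ebf2 is closer to 1 of them alone were not sought, and Ebf1 was not set against Ebf3. No window of 100 bases in the annotated transcripts of any of the 10 members was shared with another member or with another protein-coding gene. The shared windows lay in antisense transcripts of low count, namely Gm10860 on the strand opposite to Ebf2 (at most 1 count in a library), Gm45278 opposite to Ebf3 (at most 2) and Gm26626 opposite to Runx1 (at most 5). The strand setting of the read counting is not given in the sources used here, so reads from a gene and its antisense partner may not have been separated. This concerns Scx most, which lies within the gene Bop1 on the opposite strand and is taken up again beside its values.

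Normalized counts, that is counts scaled by TMM-adjusted library size to the average library, were used to compare mice. Ebf2 (ENSMUSG00000022053, chr14:67233292-67430918) had 279, 283 and 285 normalized counts in the sham mice S1, S2 and S3. In the DMSO mice A105, A127, A128 and A129 it had 158, 170.1, 151 and 152. In the A10i mice A116, A117, A119 and A120 it had 253, 255, 294 and 249.6. All 4 DMSO mice were thus below all sham mice and below all A10i mice, whereas the A10i mice lay on both sides of the sham values, with A119 as the highest of all 11. The means were 282 ± 2.82 in sham (SD, n = 3), 158 ± 8.85 in DMSO and 263 ± 21.0 in A10i mice (SD, n = 4 each). Since Ebf2 was chosen for its difference between A10i and DMSO mice, its values are a description and are given without a p-value. The log2 fold change was 0.74 (SE, the standard error, 0.11) in A10i against DMSO mice, a 1.68-fold higher level. Against sham mice, it was -0.85 (SE 0.11) in DMSO mice and -0.10 (SE 0.09) in A10i mice. When libraries were scaled by their totals without TMM, the difference between A10i and sham mice turned to 0.09, and that between DMSO and sham mice was -0.64.

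**Figure D1:**
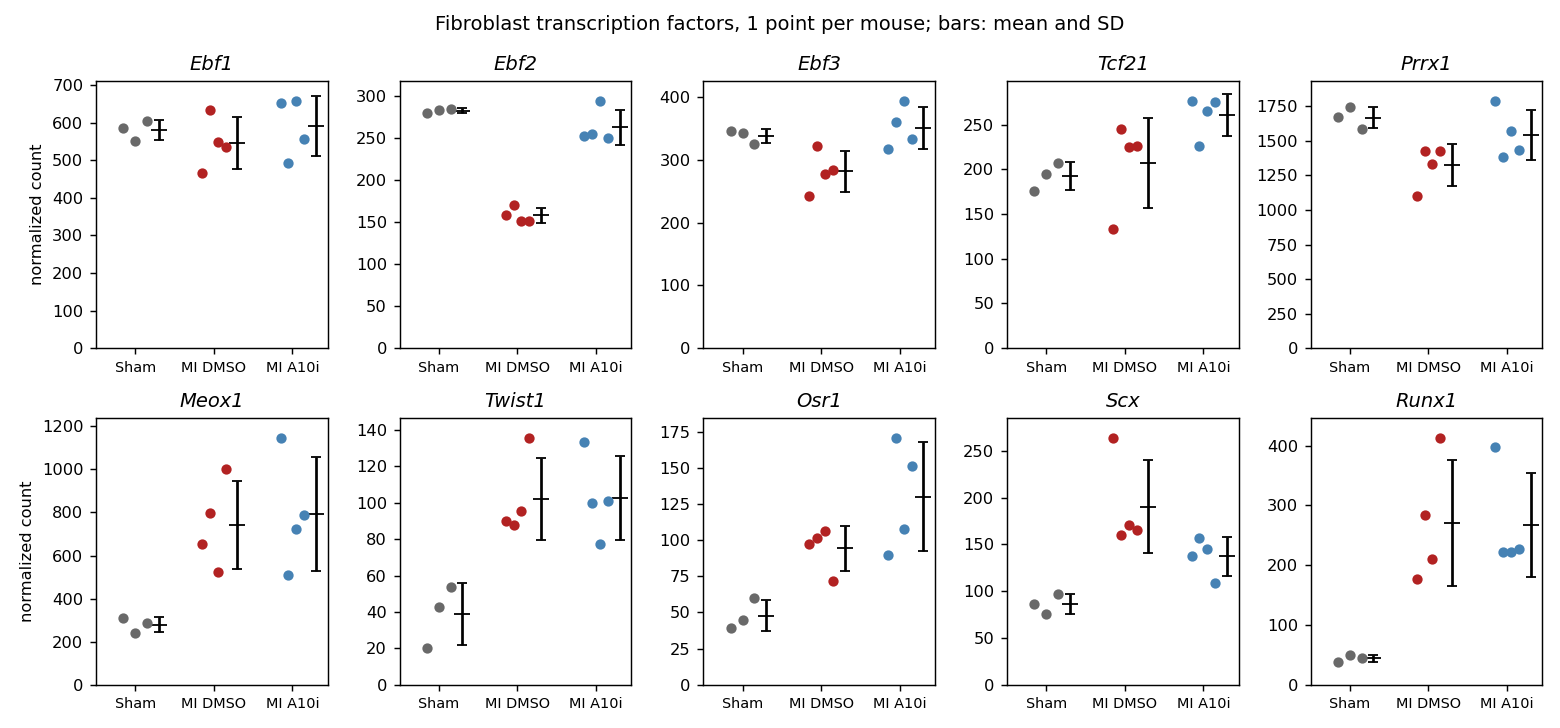
Normalized counts of the 10 genes (y axes, each from 0) in sham, MI DMSO and MI A10i mice (x axes), with 1 point per mouse and the mean and SD beside each group. The DMSO points of Ebf2 lie between 151 and 170.1, below all sham and A10i points, whereas Meox1, Twist1, Osr1, Scx and Runx1 lie higher in every infarcted mouse than in any sham mouse.

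Ebf1 and Ebf3 passed the threshold of 0.01 in neither comparison with sham mice. Ebf1 (ENSMUSG00000057098, chr11:44617317-45008091) had 586, 551 and 605 normalized counts in sham, 467, 633, 549 and 536 with DMSO, and 653, 494, 658 and 555 with A10i, each in the order of mice given for Ebf2. The 3 groups overlapped. Its log2 fold change was -0.10 (SE 0.11, edgeR adjusted p = 0.501) in DMSO against sham mice and 0.03 (SE 0.11, edgeR adjusted p = 0.865) in A10i against sham mice. Ebf3 (ENSMUSG00000010476, chr7:137193673-137314445) had 346, 344 and 326 normalized counts in sham, 242, 323, 278 and 285 with DMSO, and 318, 361, 395 and 333 with A10i. Its 4 DMSO values were all below the sham values, while A10i and sham mice overlapped. Ebf3 had a log2 fold change of -0.27 (SE 0.11, edgeR adjusted p = 0.0820) in DMSO and 0.06 (SE 0.09, edgeR adjusted p = 0.647) in A10i against sham mice. Scaling by library totals alone turned the value of Ebf1 in DMSO mice to 0.11 and moved that of Ebf3 to -0.06. Between A10i and DMSO mice, Ebf1 differed by 0.12 (SE 0.12) and Ebf3 by 0.33 (SE 0.11) on the log2 scale, with overlapping groups for both.

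To compare levels between genes, counts were divided by exon length (RPKM). Of the summed RPKM of the 3 Ebf genes, Ebf2 made up 29.8 ± 0.555% in sham (SD, n = 3), 20.9 ± 1.75% in DMSO and 27.8 ± 1.07% in A10i mice (SD, n = 4 each). Its share lay between 19.7 and 23.5% in DMSO and between 26.4 and 29.1% in A10i mice, without overlap. This share is built from the values for which Ebf2 was chosen and is a description. The 3 shares are parts of the same total, so a lower share of Ebf2 raises the others. Ebf1 held the largest share in every group, with 43.5% in sham, 51.1% with DMSO and 44.2% with A10i. Ebf3 held 26.8 ± 1.13%, 27.9 ± 0.634% and 28.0 ± 2.42% in the same order.

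Marker lists of other cells were set beside Ebf2. The mean log2 CPM of the 16 resident fibroblast markers was 6.19 ± 0.00990 in sham (SD, n = 3), 6.09 ± 0.143 in DMSO and 6.51 ± 0.0983 in A10i mice (SD, n = 4 each). In A10i against DMSO mice, 15 of these 16 markers had a positive log2 fold change, with a median of 0.40, while the median over all 16793 genes tested was 0.0034. The log2 CPM of Ebf2 minus the mean of these markers ranged from -3.64 to -3.32 in DMSO mice, from -3.29 to -2.90 in A10i mice and from -2.73 to -2.70 in sham mice, so the infarcted groups lay next to each other with a narrow gap. Relative to 18 markers of activated fibroblasts, the infarcted groups overlapped, with -4.80 to -3.12 in DMSO and -4.37 to -3.37 in A10i mice, against -0.63 to -0.45 in sham mice. These differences include the contrast for which Ebf2 was chosen and are a description. For Ebf3, the differences from the resident markers were -2.77 to -2.48 in DMSO and -2.86 to -2.48 in A10i mice, and overlapped. The summed level of 8 adipocyte markers was 13.5 to 16.8 CPM in sham, 11.8 to 18.2 with DMSO and 19.5 to 38.2 with A10i. Of these, 5 passed the filter between A10i and DMSO mice, all 5 had a positive log2 fold change (median 1.36). Mouse A117 alone reached 38.2 CPM, while the other A10i mice had 19.5 to 23.6, and among infarcted mice Ucp1 and Lep were detected only in A117 (5 and 3 counts). The adipocyte sums of DMSO and sham mice overlapped, and A119 had the lowest sum of the A10i mice (19.5 CPM). Pericyte and smooth muscle markers had a mean log2 CPM of 5.64 ± 0.0573 in sham (SD, n = 3), 5.40 ± 0.0835 in DMSO and 5.59 ± 0.0527 in A10i mice (SD, n = 4 each), the same order of group means as Ebf2. This order was not particular to them. Cardiomyocyte markers followed it too, with mean log2 CPM of 12.49 ± 0.036 (sham), 12.16 ± 0.198 (A10i) and 12.06 ± 0.216 (DMSO). Neutrophil markers ran in the reverse order, with -2.43 ± 0.181 (sham), 0.54 ± 0.651 (A10i) and 1.99 ± 0.136 (DMSO). The part of these cell types in the Ebf2 values was not tested.

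B cell markers are listed because EBF1 is a B cell factor. The summed level of 10 B cell markers was 8.93 to 11.6 CPM in sham, 3.79 to 7.66 with DMSO and 5.25 to 15.6 with A10i. Among the DMSO mice, only A128 had markers at 0 counts, namely Cd79a, Ms4a1, Pax5, Fcmr and Fcrla. In A10i mouse A117, 9 of the 10 were detected. Only 3 of the 10 passed the filter in DMSO against sham mice, where Ighm, the immunoglobulin heavy chain gene, was lower (log2 fold change -1.09, edgeR adjusted p = 0.000726). Markers of pericytes and smooth muscle cells, which also express Ebf1, were lower in 6 and higher in 1 of 11 cases in DMSO against sham mice, with a median log2 fold change of -0.35. In A10i against sham mice, 5 were lower and 2 higher, with a median of -0.21. The shares called over all genes tested were 9.6% lower and 12.9% higher in DMSO mice. In A10i mice they were 9.09% lower and 13.8% higher. The part of B cells, pericytes and smooth muscle cells in the Ebf1 values was not tested.

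By the measure of likeness used here, the Pearson correlation of log2 CPM with Ebf2 over the 8 infarcted mice, the 5 genes most like Ebf2 were Sema6a (r = 0.985), Gpr1 (r = 0.980), Gucy1a1 (r = 0.979), Efcc1 (r = 0.972) and Coro2b (r = 0.971). Their log2 fold changes in A10i against DMSO mice were 0.60, 2.28, 0.50, 0.56 and 0.34, in the same order. In all, 97 of 16792 other genes had an r above 0.9. The points share the difference between treatments for which Ebf2 was chosen, so the values only describe a similar pattern.

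Tcf21 and Prrx1, which mark the fibroblast lineage in the resting heart, did not pass the threshold against sham mice. Tcf21 (ENSMUSG00000045680, chr10:22817281-22820174) had 176, 195 and 208 normalized counts in sham, 133, 246, 225 and 227 with DMSO, and 277, 226, 266 and 276 with A10i. The DMSO values lay on both sides of the sham values, with A105 as the lowest of all 11 mice, whereas all A10i mice were above all sham mice. In DMSO against sham mice, the log2 fold change was 0.10 (SE 0.20, edgeR adjusted p = 0.708). In A10i against sham mice it was 0.44 (SE 0.11, edgeR adjusted p = 0.0124), and it passed with DESeq2's Wald test (adjusted p = 0.00757), with library size alone (edgeR adjusted p = 0.00449) and without A10i mouse A117 (edgeR adjusted p = 0.00652). Over the 15 alternatives tried, the adjusted p ranged from 0.00449 to 0.0779.

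Prrx1 (ENSMUSG00000026586, chr1:163245119-163313710) had 1675, 1744 and 1589 normalized counts in sham, 1105, 1427, 1333 and 1428 with DMSO, and 1791, 1384, 1574 and 1433 with A10i. The 4 DMSO mice were below the sham mice, with A105 again as the lowest, and the A10i mice overlapped both other groups. Prrx1 had a log2 fold change of -0.34 (SE 0.10, edgeR adjusted p = 0.0216) in DMSO and -0.11 (SE 0.09, edgeR adjusted p = 0.373) in A10i against sham mice. With library size alone, these values were -0.13 and 0.08, so the direction in A10i mice depended on the scaling. Between the treatments, the log2 fold change was 0.34 (SE 0.18) for Tcf21 and 0.23 (SE 0.11) for Prrx1, with overlapping groups.

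Meox1, Twist1, Osr1, Scx and Runx1 were higher after infarction with either treatment. At an adjusted p under 0.01, 12.9% of the 17119 genes tested were higher and 9.6% were lower in DMSO against sham mice. In A10i against sham mice, 13.8% of 17004 genes were higher and 9.09% were lower. Without Ebf2, 5 of the 9 members were called higher and 0 lower in each comparison, above the share over all genes for the higher direction. Both comparisons use the same 3 sham mice, and the genes were chosen with results of these data known, so the counts are not independent. The other 4 members were Ebf1, Ebf3, Tcf21 and Prrx1, whose values have been given.

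**Figure D2:**
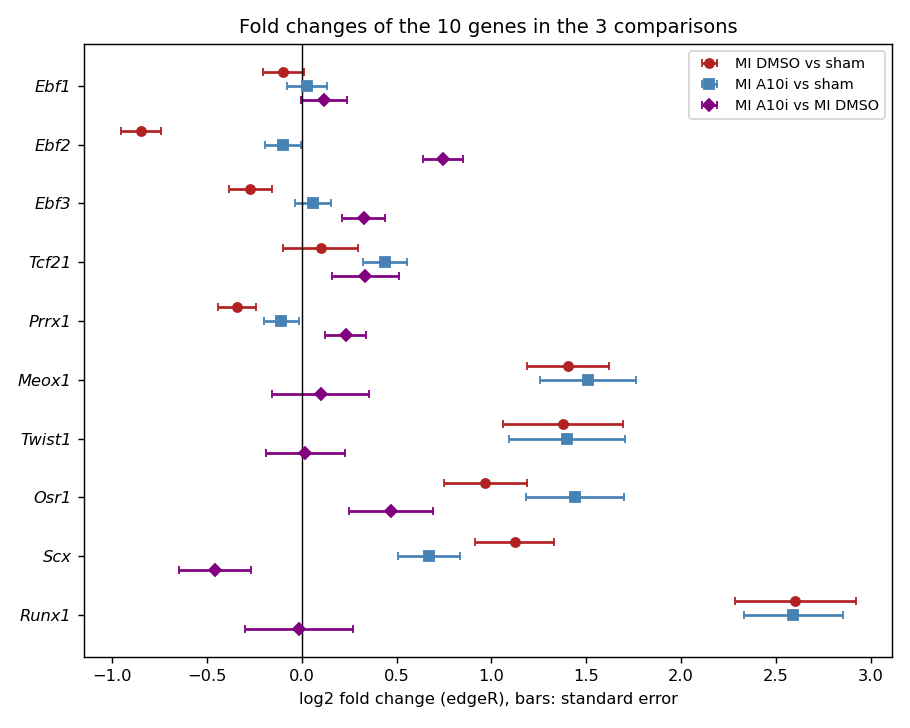
Log2 fold changes (x axis) of the 10 genes (y axis) with standard errors in MI DMSO against sham, MI A10i against sham and MI A10i against MI DMSO mice. In both comparisons with sham, Runx1 lies farthest to the right (2.60 and 2.59), while between the treatments Ebf2 is highest (0.74) and Scx lowest (-0.46).

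Runx1 (ENSMUSG00000022952, chr16:92601466-92826149), a factor of blood cell formation that is also induced in injured tissue, showed the highest rise of the 10 genes. It had 37.8, 50.3 and 44.2 normalized counts in sham, 176, 284, 210.2 and 413 with DMSO, and 397, 221, 222 and 227 with A10i. Infarcted and sham mice were far apart, and in each treatment group 1 mouse stood above the others, A129 and A116. Runx1 rose by a log2 fold change of 2.60 in DMSO (SE 0.32, edgeR adjusted p = 0.000496), a 6.08-fold rise, and 2.59 in A10i mice (SE 0.26, edgeR adjusted p = 0.000237), a 6.03-fold rise. Both passed in all 15 alternatives. Between the treatments, the log2 fold change was -0.01 (SE 0.29), and it changed sign when single mice were left out, from -0.27 without A116 to 0.27 without A129.

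Meox1 (ENSMUSG00000001493, chr11:101877510-101894374), a homeobox gene known from fibroblast activation under pressure load, had 310.4, 241 and 287 normalized counts in sham, 655, 797, 523 and 1001 with DMSO, and 1148, 509.6, 724 and 790.0 with A10i. The infarcted groups overlapped widely, and A129 and A116 were again the highest of their groups. Meox1 rose by a log2 fold change of 1.41 in DMSO (SE 0.22, edgeR adjusted p = 0.00140) and 1.51 in A10i mice (SE 0.25, edgeR adjusted p = 0.00237), which is 2.65-fold and 2.85-fold. The call in DMSO mice passed in all 15 alternatives. That in A10i mice was lost without the filter on low counts (edgeR adjusted p = 0.0236) and without sham mouse S2 (edgeR adjusted p = 0.0105). Between the treatments, Meox1 differed by 0.10 (SE 0.25).

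Twist1 (ENSMUSG00000035799, chr12:33957671-33959829) encodes a bHLH factor of the mesenchyme. It had 20.03, 42.7 and 53.5 normalized counts in sham, 89.8, 87.7, 95.2 and 136 with DMSO, and 133, 99.7, 77.2 and 101 with A10i. Its lowest library, S1, had 18 counts. The log2 fold change was 1.38 in DMSO (SE 0.32, edgeR adjusted p = 0.00736) and 1.40 in A10i mice (SE 0.30, edgeR adjusted p = 0.00553). These calls depended on the number of mice. In DMSO against sham mice, the call was lost when any 1 of the 7 mice was left out, with edgeR adjusted p from 0.0108 without A105 to 0.0273 without S2. In A10i against sham mice it was lost without S1 (0.0160), S2 (0.0226), A117 (0.0103) or A120 (0.0156, all edgeR adjusted p). Between the treatments, Twist1 differed by 0.02 (SE 0.21).

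Osr1 (ENSMUSG00000048387, chr12:9570116-9581500) encodes a zinc finger factor of embryonic connective tissue. It had 38.9, 44.6 and 59.6 normalized counts in sham, 97.4, 101, 106 and 71.9 with DMSO, and 89.9, 171, 108 and 151 with A10i. In contrast to Runx1, Meox1 and Twist1, A129 and A116 were the lowest of their groups. The log2 fold change was 0.97 in DMSO (SE 0.22, edgeR adjusted p = 0.00703) and 1.44 in A10i mice (SE 0.26, edgeR adjusted p = 0.00205). The call in DMSO mice was lost without S1 (edgeR adjusted p = 0.0382), S2 (0.0358), S3 (0.0117), A105 (0.0139), A127 (0.0183) or A128 (0.0141), and was kept without A129. That in A10i mice was lost without S1 (edgeR adjusted p = 0.0141) or S2 (0.0139). Between the treatments, Osr1 differed by 0.47 (SE 0.22), with overlapping groups.

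Scx (ENSMUSG00000034161, chr15:76457452-76459458) encodes scleraxis, a bHLH factor of tendon that also acts on collagen genes in cardiac fibroblasts. It had 86.8, 75.9 and 96.7 normalized counts in sham, 264, 159.8, 171 and 166 with DMSO, and 137, 157, 145 and 109 with A10i. The 3 groups did not overlap, although the highest A10i mouse and the lowest DMSO mouse were close (157 and 159.8). The log2 fold change was 1.12 in DMSO (SE 0.21, edgeR adjusted p = 0.00266) and 0.67 in A10i mice (SE 0.17, edgeR adjusted p = 0.00949). In DMSO against sham mice, the call was lost without S1 (edgeR adjusted p = 0.0155), S2 (0.0180) or S3 (0.0110). In A10i against sham mice, it was lost without S1 (edgeR adjusted p = 0.0378), S2 (0.0496), S3 (0.0210), A117 (0.0222) or A119 (0.0211), with limma-voom (0.0111) and with all 11 libraries in one fit (edgeR adjusted p = 0.0240). Between the treatments, the log2 fold change was -0.46 (SE 0.19), and without DMSO mouse A105 it was -0.26.

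Scx lies within Bop1, a gene of ribosome formation, on the opposite strand and without shared exon bases. Bop1 had 554, 570.4 and 595 normalized counts in sham, 948, 797, 794 and 884 with DMSO, and 719, 631, 607 and 607 with A10i. It therefore took the same order of groups as Scx, and A105 was the highest mouse for both. Bop1 had log2 fold changes of 0.57 in DMSO (edgeR adjusted p = 0.00138) and 0.16 in A10i against sham mice (edgeR adjusted p = 0.140), and -0.41 in A10i against DMSO mice (edgeR adjusted p = 0.105). Whether Bop1 reads entered the Scx counts was not tested. Markers of tendon and valve cells took another course, with summed levels of 26.1 to 43.0 CPM in sham, 44.2 to 53.4 with DMSO and 64.3 to 87.7 with A10i. All 6 of 7 that passed the filter had a positive log2 fold change in A10i against DMSO mice (median 0.76), and Tnmd, a tendon marker, had at most 4 counts in a library.

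**Figure D3:**
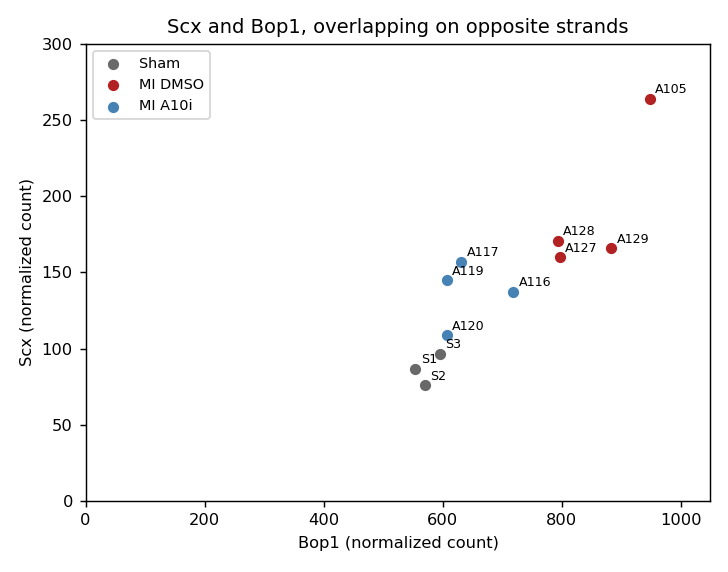
Normalized counts of Scx (y axis) against those of Bop1 (x axis), both from 0, with 1 point per mouse. DMSO mice lie highest for both genes, with A105 at 948 for Bop1 and 264 for Scx, and A10i mice lie between sham and DMSO mice.

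Among the genes called higher, start-site sequences are shown for Twist1 and for the proximal start of Runx1, the 2 of these genes for which RefSeq gave a window outside the exons of the gene. Promoters were found for 6 of the 10 members, with 8 start sites (GRCm38.p6), while Ebf2, Meox1, Osr1 and Scx had no match. The 250 bases before each start were searched on both strands for CANNTG (E-box, the motif of bHLH factors), TGTGGT or TGCGGT (RUNX), TGANTCA (AP-1) and GGAATG (TEAD). The windows lie at chr12:33957421-33957670 (Twist1, plus strand) and chr16:92697330-92697579 (Runx1, minus strand), run 5′ to 3′ and carry matches in capitals:
Twist1: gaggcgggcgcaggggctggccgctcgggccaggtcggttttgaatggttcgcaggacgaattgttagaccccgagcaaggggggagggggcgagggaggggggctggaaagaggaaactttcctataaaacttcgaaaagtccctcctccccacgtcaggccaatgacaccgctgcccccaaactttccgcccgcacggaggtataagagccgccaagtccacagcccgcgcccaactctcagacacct
Runx1: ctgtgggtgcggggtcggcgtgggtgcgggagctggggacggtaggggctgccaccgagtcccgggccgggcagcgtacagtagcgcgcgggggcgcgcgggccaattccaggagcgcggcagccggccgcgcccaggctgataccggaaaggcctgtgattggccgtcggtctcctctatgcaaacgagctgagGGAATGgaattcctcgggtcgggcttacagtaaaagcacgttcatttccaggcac

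The Twist1 window held none of the 4 motifs and that of Runx1 held 1, a TEAD match 55 bases before the start. TEAD matches are found in 12.6% of all 32851 promoter windows of the same length. The distal start of Runx1 had 3 E-boxes, at 167, 136 and 71 bases before the start, and an E-box is found in 66.2% of all windows. In the other promoters, Prrx1 had 1 TEAD match, the Ebf1 starts had 1 RUNX match and 1 E-box, and Ebf3 and Tcf21 had none. RUNX and AP-1 matches occur in 18.6 and 6.75% of all windows, and no member promoter held an AP-1 match in these letters. The GC content was 62.4% for Twist1 and 67.6% for the proximal start of Runx1, against a median of 52.4% over all windows.

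Levels per length placed the 10 genes in a similar order in both infarcted groups, but not in sham hearts. In sham mice, Prrx1 had the highest RPKM (5.90 ± 0.274, SD, n = 3), followed by Meox1 (4.90 ± 0.619), Tcf21 (3.21 ± 0.267) and Ebf1 (2.33 ± 0.108). Scx (1.68 ± 0.202) and Ebf2 (1.59 ± 0.0159) overlapped, as did Twist1 (0.930 ± 0.410) and Osr1 (0.903 ± 0.202), with Ebf3 (1.43 ± 0.0464) between these pairs. Runx1 was lowest with 0.143 ± 0.0203. In infarcted hearts Meox1 came first, with 13.1 ± 3.59 in DMSO and 13.9 ± 4.66 in A10i mice (SD, n = 4 each), above Prrx1 with 4.68 ± 0.538 and 5.46 ± 0.644. Runx1 was still lowest, with 0.881 ± 0.341 and 0.868 ± 0.283, and in DMSO mice it overlapped Ebf2 (0.890 ± 0.0499). From Prrx1 down to Ebf3, neighbours in the order overlapped in DMSO mice. In A10i mice, Scx, Twist1, Osr1 and Ebf1 overlapped as neighbours, as did Ebf3 and Ebf2. The order depends on the annotated exon length, which was 2228 bases for Meox1, 11066 for Prrx1 and 12025 for Runx1. In normalized counts, not divided by length, Prrx1 was above Meox1 in every mouse.

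**Figure D4:**
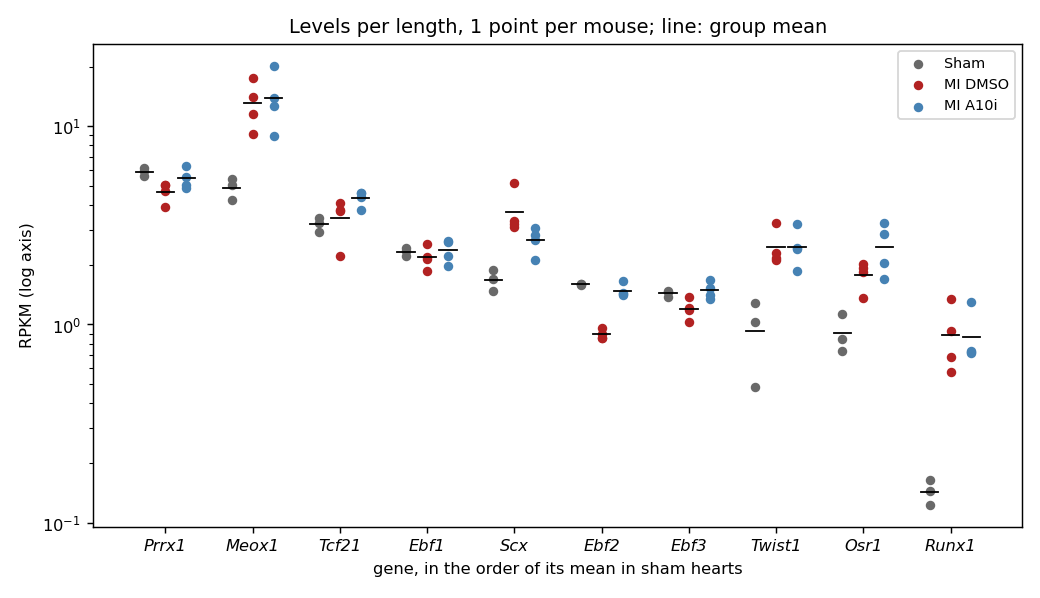
RPKM on a log axis (y) for the 10 genes (x axis, ordered by their sham mean), with 1 point per mouse and a line at each group mean. Meox1 has the highest mean in DMSO (13.1) and A10i mice (13.9) and Runx1 the lowest in all 3 groups.

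The comparison of both treatments asked which genes the inhibitor changed after infarction. With edgeR, 0 of 16793 genes passed an adjusted p of 0.01 (0% called), 2323 had an unadjusted p under 0.05, and DESeq2 and limma-voom called 227 and 0 genes. Since the members were chosen with this comparison known, no p-value is given for them. Of the 10 members, 8 had a positive log2 fold change (6 to 9 over the alternatives), with a median of 0.18. Only Ebf2 was higher and only Scx lower in all A10i than in all DMSO mice, while over all genes tested 3.78% were higher and 4.4% lower without overlap. The 8 other members overlapped.

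The closest relatives of the members were compared in the same way, and their roles are known mostly from other tissues. Runx2 and Runx3 rose in DMSO against sham mice, as did Cbfb, a binding partner that is counted here with the relatives. Runx2, a bone factor, had 25.6 ± 1.05 normalized counts in sham (SD, n = 3), 92.2 ± 33.4 in DMSO and 83.9 ± 38.3 in A10i mice (SD, n = 4 each), and its log2 fold changes were 1.84 (edgeR adjusted p = 0.00150) and 1.72 (edgeR adjusted p = 0.00428). Runx3, a factor of lymphoid cells, rose from 15.4 to 19.9 normalized counts in sham to 69.5 to 147 in DMSO and 59.2 to 116.2 in A10i mice, with log2 fold changes of 2.71 (edgeR adjusted p = 0.000275) and 2.22 (edgeR adjusted p = 0.000567). Cbfb, the partner that all RUNX factors bind, had 675 ± 44.4, 975 ± 156 and 948 ± 165, with 0.52 (edgeR adjusted p = 0.00957) in DMSO and 0.49 (edgeR adjusted p = 0.0111) in A10i mice, where it missed the threshold.

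Tcf15, a bHLH factor of endothelial cells in the heart, was the 1 relative that fell, from 569 ± 82.6 normalized counts in sham to 204 ± 43.4 in DMSO and 292 ± 88.8 in A10i mice. Its log2 fold changes were -1.49 (edgeR adjusted p = 0.000276) and -0.96 (edgeR adjusted p = 0.00723). Prrx2, a homeobox gene of fetal mesenchyme, had 1 to 7 counts in sham and 12 to 26 in infarcted mice, with log2 fold changes of 2.04 and 2.37. Twist2 had 7 to 22 counts in sham and 27 to 61 in infarcted mice, with 1.57 and 1.19. At these sham counts, Prrx2 and Twist2 could pass the filter mainly through the infarcted libraries. Their values are therefore a description and are given without a p-value. Meox2 (-0.38 and 0.07), Msc (0.01 and 0.83) and Ebf4 (-0.09 and -1.09 on the log2 scale) did not pass in either comparison, and Osr2 had at most 4 counts and was not tested. Between A10i and DMSO mice, 0 of the 9 relatives tested passed with edgeR. Msc was higher without overlap (106 ± 25.8 against 60.4 ± 14.3 normalized counts). Ebf4 was lower without overlap at low counts (4 to 11 against 15 to 30), and could pass the filter mainly through the DMSO libraries. Over all genes tested, 3.78% were higher and 4.4% lower without overlap. Msc and Ebf4 were taken up after their values were seen and are a description.

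Other mesenchymal transcription factors were read from a list of 36 genes, of which 34 were tested. In DMSO against sham mice 9 were higher and 2 lower (median log2 fold change 0.19, against 0.0021 over all genes), and in A10i against sham mice 9 were higher and 2 lower (median 0.28, against -0.0056). Over all genes, 12.9% were higher and 9.6% lower in DMSO and 13.8% and 9.09% in A10i mice, so that the counts of higher genes lay above and those of lower genes below these shares. Of those called in DMSO mice, Snai1, a repressor of epithelial genes, rose most, with log2 fold changes of 3.13 in DMSO (edgeR adjusted p = 0.000283) and 2.31 in A10i mice (edgeR adjusted p = 0.000268). Creb3l1, a factor of collagen secretion, followed with 2.02 and 1.92 (edgeR adjusted p = 0.00140 and 0.000665). Mrtfb, a cofactor of SRF, fell with -0.81 and -0.45 (edgeR adjusted p = 0.000152 and 0.000895), and Nfix with -0.59 and -0.41 (edgeR adjusted p = 0.000866 and 0.00221). With edgeR, 0 of the 34 passed between A10i and DMSO mice, with a median of 0.0074.

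Fibroblast markers placed these values in context. Of 18 markers of activated fibroblasts, 14 were higher and 0 lower in DMSO against sham mice (median log2 fold change 2.50), and 15 were higher and 0 lower in A10i mice (median 2.86). Tnc, encoding the matrix protein tenascin C, rose by a log2 fold change of 6.84 and 7.16 (edgeR adjusted p = 7.18e-05 and 0.000568), and Timp1, a protease inhibitor, by 6.63 and 6.07 (edgeR adjusted p = 7.79e-05 and 9.42e-05). Of 16 resident markers, 1 was higher and 4 lower in DMSO mice, and 7 were higher and 1 lower in A10i against sham mice. The shares called over all genes tested were 12.9% higher and 9.6% lower in DMSO mice. In A10i mice they were 13.8% higher and 9.09% lower. Mfap5, a microfibril gene, rose by 1.14 and 1.60 (edgeR adjusted p = 0.00358 and 0.000220). Scara5 and Clec3b fell in DMSO mice, by 0.99 (edgeR adjusted p = 0.00430) and 0.75 on the log2 scale (edgeR adjusted p = 0.00805), and had -0.37 and -0.08 in A10i mice (edgeR adjusted p = 0.187 and 0.670). Abca8a and Ogn were also called lower in DMSO mice, with -0.74 and -0.61 (edgeR adjusted p = 0.000872 and 0.00144). In A10i mice they had -0.59 and -0.25 (edgeR adjusted p = 0.000346 and 0.0521). Of 9 epicardial and mesothelial markers, 4 were higher in DMSO and 5 in A10i against sham mice, and 0 were lower.

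Markers of other cell types were read in the same tissue. In DMSO against sham mice, 8 of 10 macrophage and monocyte markers were higher, and 5 of 10 cardiomyocyte markers were lower and 1, Myh7, was higher. Of 10 neutrophil markers, 7 passed the filter and all 7 were higher. With a sum of at most 3.00 CPM in sham, neutrophil markers could pass the filter mainly through the DMSO libraries. Their count is therefore a description and not a result of the test. Macrophage and monocyte markers summed to 353 to 392 CPM in sham, 601 to 1009 with DMSO and 788 to 1479 with A10i. Neutrophil markers summed to 1.67 to 3.00, 81.2 to 149 and 15.1 to 55.3 CPM in the same order, and Camp had at most 3 counts in a library. Of 10 endothelial markers, 1 was higher and 2 lower in DMSO and 1 higher and 1 lower in A10i against sham mice, near the shares over all genes (12.9% higher and 9.6% lower in DMSO, 13.8% and 9.09% in A10i mice). RUNX1, RUNX3 and CBFB are made by blood cells, and their part in the higher Runx1, Runx3 and Cbfb values was not tested.

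The mice of a group differed among themselves, and the members did not all follow the same mice. After subtraction of group means, the log2 CPM of the members was correlated over the 8 infarcted mice, with exact permutation within groups (two-sided, smallest possible p = 0.00174). Of 45 pairs of members, 25 had a positive and 20 a negative r, with a median of 0.0926, and 0 passed an adjusted p of 0.05. The strongest were Ebf1 with Prrx1 (r = 0.847, rho = 0.714, exact permutation p = 0.0278 and 0.0903, adjusted p = 0.179 for r) and, in the opposite direction, Tcf21 with Scx (r = -0.910, rho = -0.762, exact permutation p = 0.00521 and 0.0417, adjusted p = 0.179 for r). Without the 2 mice farthest from the median of the first gene, these became 0.834 and -0.518.

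Of 40 relations of the members with resident fibroblast, activated fibroblast, macrophage and cardiomyocyte markers, 0 passed an adjusted p of 0.05 either. At the smallest possible p, a single relation alone would have an adjusted p of 0.0694 among 40 relations and 0.0781 among 45 pairs, so that no single relation could pass. Runx1 with the activated fibroblast markers came closest (r = 0.974, rho = 0.976, exact permutation p = 0.00174 and 0.00347, adjusted p = 0.0694 for both), and r was 0.979 without A116 and A129. With macrophage and monocyte markers, Runx1 had r = 0.931 and rho = 0.810 (exact permutation p = 0.0174 and 0.0521, adjusted p = 0.0992 and 0.298), and r was 0.700 without these mice. Prrx1 had r = 0.882 and rho = 0.905 with the activated markers (exact permutation p = 0.00521 and 0.0139, adjusted p = 0.0694 and 0.111), although its mean did not rise with infarction. Osr1 had r = 0.781 and rho = 0.690 with the resident markers (exact permutation p = 0.00868 and 0.00347, adjusted p = 0.0868 and 0.0694). Twist1 had r = -0.923 and rho = -0.857 with cardiomyocyte markers (exact permutation p = 0.00521 and 0.0139, adjusted p = 0.0694 and 0.111), which became -0.515 without A116 and A129. The points share the tissue piece and the library of each mouse.

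**Figure D5:**
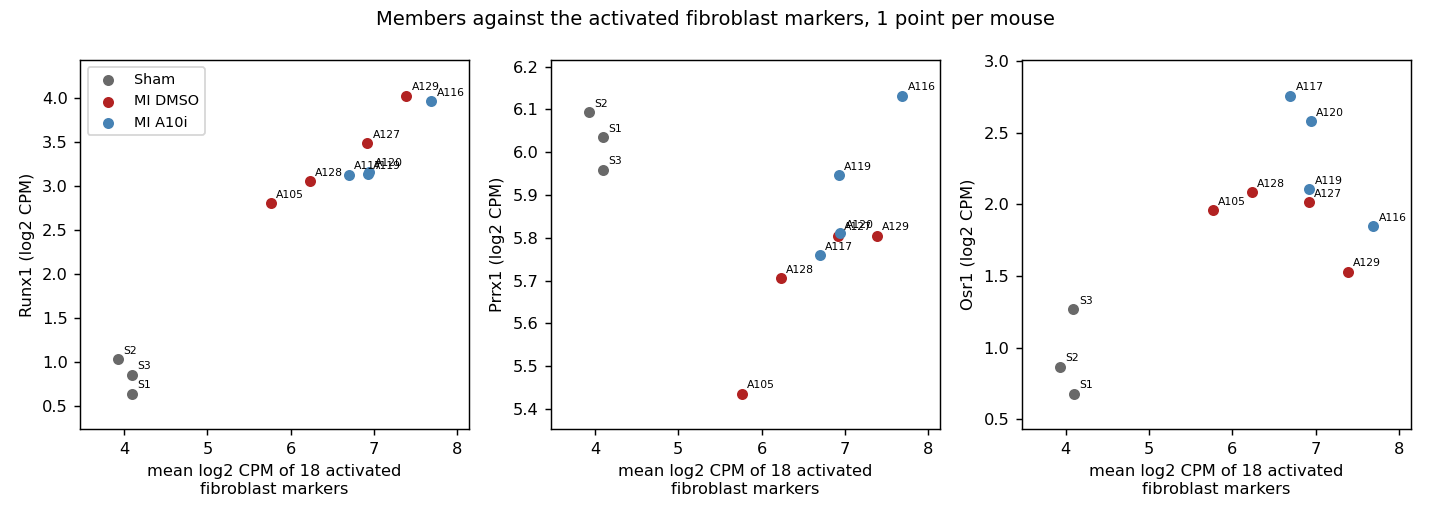
Log2 CPM of Runx1, Prrx1 and Osr1 (y axes) against the mean log2 CPM of 18 activated fibroblast markers (x axes), with 1 labelled point per mouse. Within the infarcted mice, Runx1 follows the markers, with A129 and A116 at the top of both, whereas for Prrx1 the sham mice (5.96 to 6.09) lie within the range of the infarcted mice (5.44 to 6.13).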

How the data were processed

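The count table covers 11 mouse hearts (3 sham, 4 DMSO, 4 A10i). The authors enriched poly(A) RNA, prepared strand-specific libraries, aligned read pairs to mm10 with GSNAP and assigned reads with a unique alignment to Ensembl genes with featureCounts 2.0.1 (bcl2fastq 2.20.0 for demultiplexing, per the submitters' processing notes). The deposited table holds these raw counts for 55513 genes, without normalization. Totals per library lay between 21702659 and 29511782, and mitochondrial genes held 21.5 to 22.2% of the counts in sham and 14.8 to 18.6% in infarcted mice. Replicates differed by more than counting error (chi-square per degree of freedom 3.80 to 55.2 over 15 pairs). The labels give no batch and no replicate number shared between groups.

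Differential expression between each pair of groups was tested on their own libraries with edgeR 4.0.16 in R 4.3.3 (filterByExpr with a minimum count of 10, TMM, robust quasi-likelihood F-test, two-sided, Benjamini-Hochberg adjustment over all genes tested, threshold 0.01). DESeq2 1.42.0, limma-voom (limma 3.58.1), other scalings and filters, a joint fit, leaving out each library and a threshold of 0.05 served as alternatives. Log2 CPM used a prior count of 2, and RPKM the exon length of the table. The scripts were tested on simulated data. The exact permutation tests kept each mouse within its treatment group, with adjustment over 45 or 40 relations. Symbols came from GENCODE M21, promoters from RefSeq (GRCm38.p6). The members and lists were chosen with earlier results of these data known. Named were every member, its closest relatives, in other lists the genes with the largest and second largest absolute log2 fold change called in DMSO against sham in each direction, the 5 genes most like Ebf2, and markers at 0 counts. Bop1, Msc, Ebf4, Abca8a, Ogn and the markers named for low counts were taken up after their values were seen. The weighting of hypotheses in the study's own DESeq2 analysis was not repeated.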

Additional observations from a re-analysis of the deposited data

Results flagged for a closer look

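In 4 of the 20 groups of 4 mice, 10 members in 2 treatments, the highest mouse stood apart from the nearest of the others by more than Dixon's critical value for the ratio of this gap to the range of the group. Chance alone flags about 1 in 20 groups. Ebf2 was 294 normalized counts in A10i mouse A119, next to 255. Twist1 was 136 in DMSO mouse A129, next to 95.2. Scx was 264 in DMSO mouse A105, next to 171, the mouse that also had the highest Bop1 value. Runx1 was 397 in A10i mouse A116, next to 227. Groups of 3 sham mice were not examined in this way. No explanation of these values was tested.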

How the results depend on the processing

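No member called in a comparison with sham changed its direction under any alternative. Scaling by library size without TMM moved the median over all genes tested to 0.21 (log2) in DMSO and 0.18 in A10i against sham mice, and calls split into 3330 higher and 708 lower (2214 and 1643 with TMM) and into 3435 higher and 576 lower (2339 and 1546 with TMM). At a threshold of 0.05, 6832 genes were called in DMSO against sham, 6672 in A10i against sham and 12 in A10i against DMSO mice. In A10i against DMSO mice, 227 genes were called with DESeq2, 43 without the filter on low counts and 11 with all 11 libraries in one fit, against 0 with the main settings. When each library was left out in turn, 1522 to 4051 genes and 2 to 4 members were called in DMSO against sham, 1620 to 4365 genes and 1 to 5 members in A10i against sham, and 0 to 1 genes in A10i against DMSO mice. Leaving out a sham library leaves 2 sham mice. Of 270 values of single members with a p-value under alternatives, 236 kept their side of the threshold, 31 were no longer past it and 3 newly passed. Of 190 values given without a p-value, 2 of Ebf2 moved by more than the spread between mice. No paired analysis was possible because the groups share no replicate numbers in the labels. With 3 sham mice, calls near the threshold rest on few samples, and Twist1, with 18 counts in its lowest library, had the largest error relative to its level in sham mice.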
